A study of Mus musculus with 10 samples.

Results

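The genes encoding mitochondrial ribosomal proteins were examined in livers of male C57BL/6 mice carrying a liver-specific Pparg knockout. They were taken as the rows whose symbol is Mrpl or Mrps followed by a number and that reached 0.5 FPKM (fragment numbers divided by transcript length and by the library's mapped fragments) in at least 5 of the 10 libraries, which gave 78 of the 11242 genes that passed this filter, out of 16874 rows in all. All 78 rows with such a symbol passed, so none was lost for low expression, and the lowest of them, Mrpl19, averaged 3.15 FPKM. By symbol, 49 belong to the large subunit (Mrpl) and 29 to the small subunit (Mrps). The 5 DEHP libraries came from knockout mice given di(2-ethylhexyl) phthalate (DEHP), a phthalate plasticizer, by gavage at 2500 mg/kg body weight. The 5 CMC libraries came from knockout mice gavaged with 0.5% carboxymethylcellulose (CMC), the vehicle. Both groups carry the knockout and no mouse with intact Pparg is among the libraries, so any effect of the deletion itself cannot be read from them. The labels give 12 mice of 20 to 30 g in each group. They do not give the Cre driver, the age, the length of treatment or whether a library is 1 mouse, and the p-values rest on the spread among the libraries, which may be technical.

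Mitochondria keep their own ribosome, which translates the few proteins encoded by mitochondrial DNA, all of them subunits of the respiratory chain or of ATP synthase. Its RNAs come from mitochondrial DNA, while every one of its proteins is encoded in the nucleus, made in the cytosol and imported. Many of these proteins have a counterpart in bacterial ribosomes, and the rest are particular to mitochondria. In liver, agonists of the nuclear receptor PPARα, among them the DEHP metabolite mono(2-ethylhexyl) phthalate, are known to induce peroxisomal and mitochondrial fatty acid oxidation genes.

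Transcripts of the mitochondrial ribosome were shifted upward in DEHP livers by a small amount. Of the 78 genes, 26 rose in DEHP livers and none fell, which is 33.3% of the genes, beside 9.12% of all tested genes higher and 2.40% lower (limma on log2(FPKM + 0.5), Benjamini-Hochberg adjusted p under 0.05 over all 11242 genes). The median log2 fold change of the 78 was 0.23, beside 0.06 over all tested genes. A positive value was found for 72 of the 78, beside 6688 of all 11242 tested genes. Single genes ranged from -0.14 (Mrpl18) to 0.67 (Mrps36), which is at most a 1.59-fold difference. The protein of Mrps36 is placed outside the ribosome below. Among genes placed in it the largest value was 0.55 (Mrps30, 1.47-fold). In 24 of the genes (30.8%) every DEHP library lay above every CMC library, beside 8.56% of all tested genes. In none did every DEHP library lie below every CMC library, beside 2.14% of all tested genes.

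**Figure D1:**
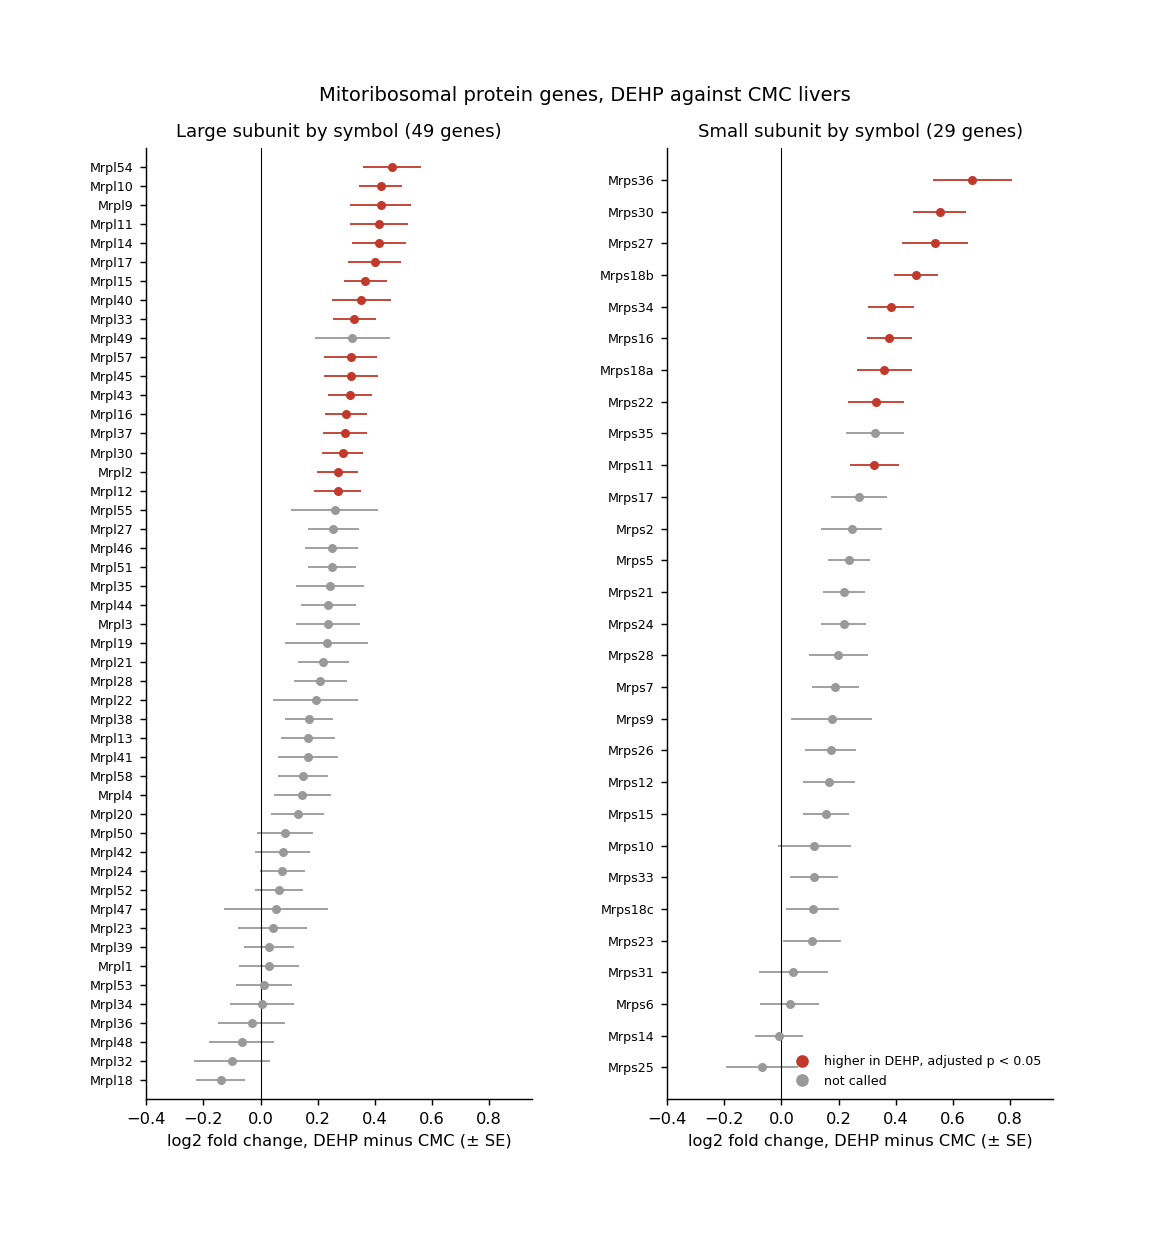
Log2 fold changes (DEHP minus CMC, on log2(FPKM + 0.5)) of the 78 mitochondrial ribosomal protein genes with their standard errors, large subunit and small subunit by symbol. Called genes are red and the others grey. Values run from -0.14 (Mrpl18) to 0.67 (Mrps36, whose protein is placed outside the ribosome). Of the 78, 72 lie above 0, and the 26 called genes all lie above 0.

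How many genes were called depended on how the libraries were scaled to each other. FPKM divides by a library's total, and what part the most abundant transcripts have in this dependence was not tested. After median-of-ratios scaling 10 of the 78 genes were higher and none lower, beside 5.68% of all genes higher, with a member median of 0.15 and an all-gene median of -0.01. After quantile normalization 8 were higher and none lower, beside 5.43% of all genes higher, with a member median of 0.10 and an all-gene median of -0.02. Across all genes the split of higher to lower calls was 1025 to 270 on FPKM as deposited, 639 to 445 after median-of-ratios scaling and 611 to 546 after quantile normalization. The number of the 78 genes with a positive log2 fold change was 63 under median-of-ratios scaling and 55 under quantile normalization. The 10 genes called after median-of-ratios scaling were Mrpl9, Mrpl10, Mrpl14, Mrpl15, Mrpl54, Mrps16, Mrps18b, Mrps27, Mrps30 and Mrps36, and quantile normalization called the same genes other than Mrpl9 and Mrpl14. The other 16 of the 26 were called under neither scaling. The 6 genes called under each of the 20 alternatives tried were Mrps18b, Mrps30, Mrpl10, Mrps36, Mrpl15 and Mrps16.

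**Figure D2:**
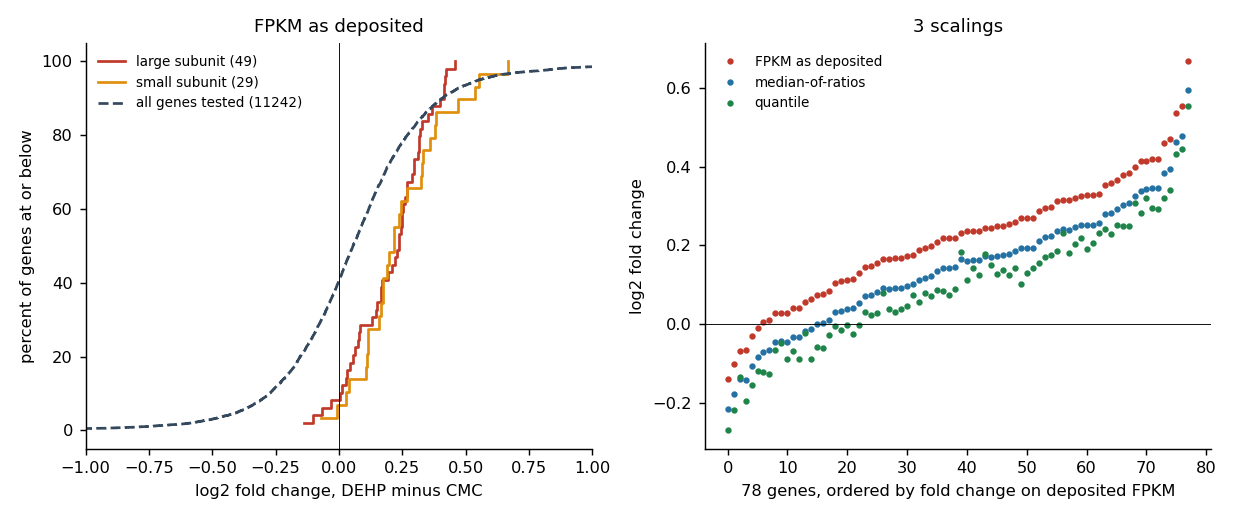
Left, cumulative percent of genes by log2 fold change on FPKM as deposited, for the large subunit, the small subunit and all tested genes. Right, log2 fold changes of the 78 genes under FPKM as deposited, median-of-ratios scaling and quantile normalization, with a line at 0. The member median was 0.23, 0.15 and 0.10 under the 3 scalings in that order, above all-gene medians of 0.06, -0.01 and -0.02.

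The libraries were alike in total FPKM, from 688410 to 747577 in DEHP and from 696318 to 724127 in CMC libraries. Their sequencing depth is unknown, because FPKM keeps no fragment number. The median-of-ratios size factor averaged 1.03 ± 0.04 in DEHP and 0.97 ± 0.03 in CMC libraries (SD, n = 5 each), and the groups overlapped. Pparg read 7.81, 5.50, 9.40, 7.79 and 7.04 FPKM in DEHP libraries 1 to 5, against 2.40, 4.56, 4.14, 2.72 and 5.90 FPKM in CMC libraries 1 to 5 (log2 fold change 0.89, SE 0.21, adjusted p = 0.0118). The groups overlapped, since DEHP library 2 lay below CMC library 5. A value over all exons cannot check a deletion of some of them, and it does not separate hepatocytes from other cells. Of 10 known PPARα targets used as markers of the exposure, 9 rose in DEHP livers and none fell, with a median log2 fold change of 3.12.

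Markers of the cell types that whole liver holds moved in part with the groups. The 9 hepatocyte markers summed to 47738 to 54570 FPKM in DEHP livers and 63110 to 77848 FPKM in CMC livers, with no overlap. Alb, Serpina1c, Apoa1 and Ttr fell, Cyp2e1 rose and the other 4 did not pass. The 7 cholangiocyte markers summed to 18.2 to 32.1 FPKM in DEHP and 34.8 to 148 FPKM in CMC livers, without overlap. The 148 FPKM was in CMC library 2, and the next highest was 46.5 FPKM in CMC library 1. Of the 4 tested cholangiocyte genes Tff3 fell, and their median log2 fold change was -0.08. The duct keratins Krt7 and Krt19 were at most 3.55 FPKM in any library. The 10 Kupffer cell markers summed to 140 to 161 FPKM in DEHP and 117 to 160 FPKM in CMC livers, with no member called. Of the 10 stellate cell markers only Rgs5 was called (lower), and of the 9 endothelial markers none was, with sums that overlapped between the groups. The 8 lymphocyte markers summed to under 5 FPKM in every library, and Cftr, Ms4a1 and Cd8a were listed at 0 in some or most libraries. The part of these shifts in the rise of the ribosomal protein genes was not tested. In bulk liver, fewer cells of a type and less RNA per cell cannot be told apart.

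Genes of both subunits rose. In the large subunit 17 of 49 genes (34.7%) rose and none fell, with a median log2 fold change of 0.24. In the small subunit 9 of 29 (31.0%) rose and none fell, with a median of 0.22. Positive values were found for 45 of 49 large-subunit and 27 of 29 small-subunit genes on the deposited scale, beside 6688 of all 11242 tested genes. The numbers were 38 and 25 after median-of-ratios scaling and 34 and 21 after quantile normalization, with no all-gene count made. The symbols do not match the proteins' places in full. The proteins of Mrps30 and Mrps18a sit in the large subunit of the mammalian mitochondrial ribosome, and the protein of Mrps36 is known as a part of the 2-oxoglutarate dehydrogenase complex. Counted by place with Mrps36 left out, a grouping added after the values were seen, 19 of 51 large-subunit and 6 of 26 small-subunit genes rose.

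Summed over genes, large-subunit transcripts reached 2408, 2319, 2469.8, 2400.3 and 2552 FPKM in DEHP libraries 1 to 5, against 2072, 2294, 2131, 2077 and 2031 FPKM in CMC libraries 1 to 5. Small-subunit transcripts summed to 1293, 1214, 1246, 1241 and 1347 FPKM in DEHP libraries 1 to 5, against 1069, 1085, 1073, 1053 and 1031 FPKM in CMC libraries 1 to 5. In both subunits every DEHP library was above every CMC library, and DEHP library 5 was the highest. The ratio of group means was 1.15 for the large and 1.19 for the small subunit. All 78 genes together took 0.518 ± 0.020% of total FPKM in DEHP and 0.446 ± 0.023% in CMC livers (SD, n = 5 each). After median-of-ratios scaling the sums were 3606 ± 245 FPKM in DEHP and 3267 ± 78.7 FPKM in CMC livers, a ratio of 1.104, and the groups still did not overlap.

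The ratio of the large-subunit sum to the small-subunit sum was 1.92 ± 0.04 in DEHP and 1.996 ± 0.07 in CMC livers (SD, n = 5 each). The groups overlapped on this ratio. The difference was -0.079, and -0.050 without CMC library 2, whose ratio of 2.11 lay above the 1.94 to 1.99 of the other CMC libraries. With the genes placed by where their proteins sit, the ratio was 2.18 ± 0.06 in DEHP and 2.23 ± 0.06 in CMC livers.

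**Figure D3:**
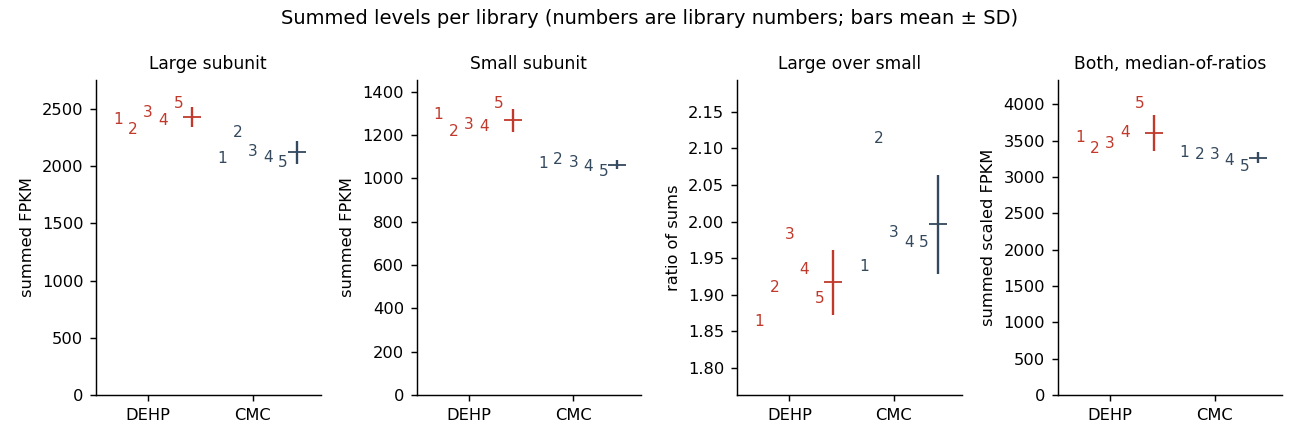
Summed FPKM of the large-subunit genes and of the small-subunit genes, their ratio, and the sum of both after median-of-ratios scaling. Each library is shown by its number, DEHP left of CMC, with group means and SD. Large-subunit sums were 2319 to 2552 FPKM in DEHP and 2031 to 2294 FPKM in CMC libraries, small-subunit sums 1214 to 1347 FPKM and 1031 to 1085 FPKM, and only the ratio overlapped.

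Levels differed among the 78 genes far more than between the groups. Mean FPKM over all libraries ran from 3.15 (Mrpl19) to 181 (Mrpl12), a 57.6-fold span, with a median of 33.4. The median coefficient of variation between libraries of a group was 9.80% in DEHP and 10.03% in CMC livers, so that a rise of the typical size, about 0.23 on the log2 scale, was of the order of the spread between libraries.

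In the large subunit, the genes of the factor-binding stalk, which recruits the translation GTPases, were all called. These are 3 of 3 genes, beside 33.3% of the 78 and 9.12% of all tested genes. Mrpl10 (NCBI gene 107732, chr11:97041582-97049213, GRCm38.p6) encodes the stalk base protein that carries the copies of the Mrpl12 protein. It read 39.5, 36.2, 38.3, 36.3 and 41.97 FPKM in DEHP libraries 1 to 5, against 27.5, 30.8, 26.9, 28.5 and 29.4 FPKM in CMC libraries 1 to 5. Every DEHP library was above every CMC library (log2 fold change 0.42, SE 0.07, adjusted p = 0.00224). Mrpl11 encodes the protein beside it at the stalk base. It read 11.9, 12.7, 11.1, 11.2 and 13.6 FPKM in DEHP libraries 1 to 5, against 9.65, 9.97, 9.10, 8.42 and 7.64 FPKM in CMC libraries 1 to 5, again without overlap (log2 fold change 0.42, SE 0.10, adjusted p = 0.0152). Mrpl12 encodes the stalk protein itself, which is also known to bind the mitochondrial RNA polymerase, and was the most abundant of the 78. It read 200.1, 176, 214, 184 and 216 FPKM in DEHP libraries 1 to 5, against 165, 187, 158, 157 and 153 FPKM in CMC libraries 1 to 5. These groups overlapped (log2 fold change 0.27, SE 0.08, adjusted p = 0.0481), and the Mrpl12 call was lost without any 1 library other than DEHP 2 or CMC 2, with an adjusted p of up to 0.117. After median-of-ratios scaling Mrpl10 alone of the 3 was called, with an adjusted p of 0.0544 for Mrpl11 and 0.17 for Mrpl12.

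Mrpl15 (NCBI gene 27395, chr1:4773198-4785750) has a bacterial counterpart in the core of the large subunit. It read 26.7, 25.8, 27.6, 25.1 and 27.5 FPKM in DEHP libraries 1 to 5, against 19.1, 22.0, 21.5, 20.5 and 19.3 FPKM in CMC libraries 1 to 5. The groups did not overlap (log2 fold change 0.37, SE 0.08, adjusted p = 0.00608). Mrpl54 encodes a protein particular to mitochondria. Its values were 72.1, 67.8, 76.6, 76.1 and 89.8 FPKM in DEHP libraries 1 to 5, against 45.2, 58.4, 56.3, 65.1 and 53.2 FPKM in CMC libraries 1 to 5. The DEHP libraries were all above the CMC libraries (log2 fold change 0.46, SE 0.10, adjusted p = 0.00878), and the call was lost with a circadian covariate, the first principal component of 17 clock genes (adjusted p = 0.0696). Mrpl14, whose protein lies at the interface with the small subunit, read 149.8, 148, 147, 125 and 171 FPKM in DEHP libraries 1 to 5, against 114, 129.6, 104, 101 and 107 FPKM in CMC libraries 1 to 5. The groups overlapped (log2 fold change 0.41, SE 0.09, adjusted p = 0.00982), and the adjusted p was 0.0661 after quantile normalization. Mrpl33, a small protein with a bacterial counterpart, read 68.9, 73.0, 74.7, 80.7 and 70.5 FPKM in DEHP libraries 1 to 5, against 54.6, 62.2, 64.2, 55.1 and 56.7 FPKM in CMC libraries 1 to 5. The groups were apart (log2 fold change 0.33, SE 0.08, adjusted p = 0.0111), and neither scaling alternative kept the call.

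Around the exit of the tunnel through which the new chain leaves, 2 of 7 genes rose, Mrpl17 and Mrpl45. The share was 33.3% over the 78 and 9.12% over all tested genes. None of the 7 was called after either scaling. Mrpl17 read 11.2, 11.6, 12.1, 13.4 and 12.6 FPKM in DEHP libraries 1 to 5, against 9.91, 8.58, 8.97, 9.77 and 8.27 FPKM in CMC libraries 1 to 5. Its DEHP libraries were all higher (log2 fold change 0.40, SE 0.09, adjusted p = 0.0115), with an adjusted p of 0.0544 after median-of-ratios scaling and 0.059 after quantile normalization. Mrpl45, whose protein anchors the ribosome to the inner membrane, had an adjusted p of 0.0452 and lost the call without any 1 library other than CMC 2 (up to 0.107). Around the peptidyl transferase centre, where peptide bonds form, 2 of 5 genes rose, Mrpl2 and Mrpl16, beside the same shares. Mrpl16 had 33.6, 32.8, 30.1, 30.6 and 35.3 FPKM in DEHP libraries 1 to 5, against 27.1, 26.4, 26.3, 24.9 and 26.9 FPKM in CMC libraries 1 to 5. No values overlapped (log2 fold change 0.30, SE 0.07, adjusted p = 0.0166), but the call was lost after median-of-ratios scaling (adjusted p = 0.104), after quantile normalization (0.145) and with the circadian covariate (0.0943). The Mrpl2 call was lost after both scalings (adjusted p = 0.138 and 0.279), with the circadian covariate (0.0601) and without CMC library 4 (0.0677).

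Mrpl43 encodes a protein particular to mitochondria. Its level was 53.4, 51.4, 52.0, 51.1 and 51.4 FPKM in DEHP libraries 1 to 5, against 43.5, 46.9, 42.4, 39.0 and 37.0 FPKM in CMC libraries 1 to 5. The groups did not overlap (log2 fold change 0.31, SE 0.08, adjusted p = 0.0153), and the adjusted p was 0.0638 after median-of-ratios scaling and 0.129 after quantile normalization. Mrpl30, with a counterpart in bacteria, was at 102, 94.6, 89.2, 101 and 104 FPKM in DEHP libraries 1 to 5, against 84.2, 82.6, 78.8, 74.0 and 81.4 FPKM in CMC libraries 1 to 5. Again the groups were apart (log2 fold change 0.29, SE 0.07, adjusted p = 0.0163). The call was lost after both scalings (adjusted p = 0.121 and 0.176), with the circadian covariate (0.0758) and without CMC library 4 (0.0503). The other called large-subunit genes depended on single libraries. Mrpl9 lost its call without DEHP 1, DEHP 3 or CMC 1 (adjusted p up to 0.0542), and Mrpl37 without DEHP 1, DEHP 4, CMC 1, CMC 4 or CMC 5 (up to 0.0644). Mrpl40 kept it only without DEHP 4, CMC 2 or CMC 5 (up to 0.0949 otherwise), and Mrpl57 only without DEHP 4 or CMC 1 (up to 0.0971 otherwise).

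The 2 lowest p-values of the 78 genes belonged to Mrps18b and Mrps30, small-subunit genes by symbol. Mrps18b (chr17:35910380-35916440, GRCm38.p6) encodes a protein particular to mitochondria. It read 54.6, 59.8, 56.0, 55.0 and 62.7 FPKM in DEHP libraries 1 to 5, against 43.7, 37.4, 38.7, 44.2 and 43.6 FPKM in CMC libraries 1 to 5. No library of either group reached the other (log2 fold change 0.47, SE 0.08, adjusted p = 0.00132). Its 2 relatives, which come from the same ancestral S18 gene, had smaller log2 fold changes. Mrps18a read 67.4, 54.5, 60.4, 61.5 and 64.8 FPKM in DEHP libraries 1 to 5, against 56.5, 40.9, 47.6, 52.8 and 43.3 FPKM in CMC libraries 1 to 5. The groups overlapped (log2 fold change 0.36, SE 0.10, adjusted p = 0.0263), and the call was lost after both scalings (adjusted p = 0.126 and 0.171), with the circadian covariate (0.0679) and without DEHP 1, DEHP 3, DEHP 5, CMC 2, CMC 3 or CMC 5 (adjusted p up to 0.0718). Mrps18c, the counterpart of the bacterial S18 protein, read 78.1, 59.5, 59.3, 62.0 and 58.2 FPKM in DEHP libraries 1 to 5, against 51.5, 62.5, 61.7, 60.6 and 56.5 FPKM in CMC libraries 1 to 5. DEHP library 1 stood above the rest, the groups overlapped and the difference did not pass (log2 fold change 0.11, SE 0.09, adjusted p = 0.51). Whether the 3 differ from each other was not tested.

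Mrps30, of which the protein lies in the large subunit, read 26.1, 23.1, 23.9, 20.8 and 26.9 FPKM in DEHP libraries 1 to 5, against 17.0, 16.6, 14.4, 17.9 and 15.4 FPKM in CMC libraries 1 to 5. All DEHP libraries were above all CMC libraries (log2 fold change 0.55, SE 0.09, adjusted p = 0.00159). Mrps36, the gene whose protein belongs to the 2-oxoglutarate dehydrogenase complex, had the largest fold change of the 78. It read 19.5, 21.7, 30.6, 33.8 and 25.3 FPKM in DEHP libraries 1 to 5, against 17.6, 17.7, 14.4, 14.5 and 15.9 FPKM in CMC libraries 1 to 5, with no overlap and a wide spread in DEHP livers (log2 fold change 0.67, SE 0.14, adjusted p = 0.00605).

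Mrps16, with a bacterial counterpart in the body of the small subunit, read 75.5, 72.2, 73.8, 68.5 and 78.6 FPKM in DEHP libraries 1 to 5, against 52.6, 65.2, 51.5, 57.3 and 57.2 FPKM in CMC libraries 1 to 5. The groups were apart (log2 fold change 0.38, SE 0.08, adjusted p = 0.00625). Mrps34 and Mrps27 encode proteins particular to mitochondria, of which the Mrps27 protein is a pentatricopeptide repeat protein. Mrps34 read 116, 106, 105, 107 and 120.2 FPKM in DEHP libraries 1 to 5, against 99.6, 81.8, 84.8, 82.1 and 76.7 FPKM in CMC libraries 1 to 5. The groups did not overlap (log2 fold change 0.38, SE 0.08, adjusted p = 0.00672), and the adjusted p was 0.0538 after median-of-ratios scaling and 0.062 after quantile normalization. Mrps27 read 24.8, 25.8, 27.1, 23.7 and 23.0 FPKM in DEHP libraries 1 to 5, against 13.8, 14.0, 19.0, 18.6 and 20.5 FPKM in CMC libraries 1 to 5. All DEHP libraries were higher (log2 fold change 0.54, SE 0.12, adjusted p = 0.00746), and the adjusted p was 0.0705 with the circadian covariate. Among 6 genes around the decoding centre and the path of the messenger RNA only Mrps11 rose, beside 9.12% of all tested genes. It read 20.1, 22.3, 22.9, 19.9 and 21.1 FPKM in DEHP libraries 1 to 5, against 16.7, 15.1, 15.9, 17.7 and 19.0 FPKM in CMC libraries 1 to 5. The groups were apart (log2 fold change 0.33, SE 0.09, adjusted p = 0.025), and the call was lost after both scalings (adjusted p = 0.0931 and 0.132), with the circadian covariate (0.172) and without DEHP 2, DEHP 3, CMC 1, CMC 2 or CMC 3 (adjusted p up to 0.0681). Mrps22, particular to mitochondria, was also called (adjusted p = 0.0419) and kept the call only without DEHP 1, CMC 4 or CMC 5 (up to 0.103 otherwise).

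**Figure D4:**
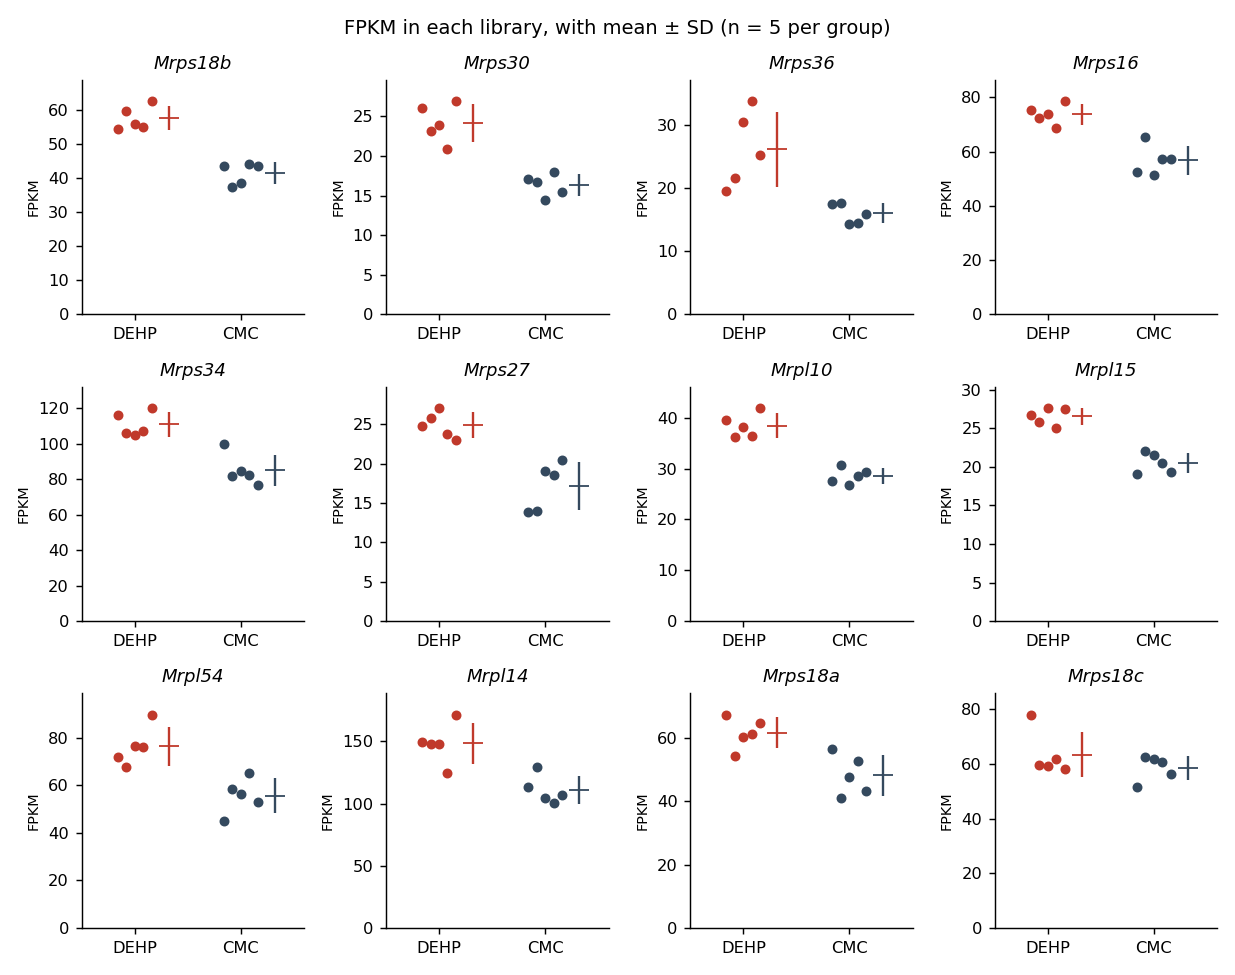
FPKM in each library for leading members, DEHP left of CMC, points for libraries and lines for group means. Mrps18b averaged 57.6 FPKM in DEHP and 41.5 FPKM in CMC livers and Mrps30 24.2 and 16.3 FPKM, and in both genes no library of one group reached the other.

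Of 46 genes whose proteins have a bacterial counterpart 13 rose (28.3%), and of 31 genes particular to mitochondria 12 rose (38.7%). Beside them, 9.12% of all tested genes were higher. The medians were 0.22 and 0.25 on the log2 scale. After median-of-ratios scaling 5 of the 46 and 4 of the 31 were higher, beside 5.68% of all tested genes. After quantile normalization 3 and 4 were, beside 5.43%. By symbol on FPKM as deposited, the counts were 2 of 16 and 6 of 12 in the small subunit. They were 11 of 30 and 6 of 19 in the large subunit. The 6 of 12 include Mrps30 and Mrps18a, whose proteins sit in the large subunit. The groupings by bacterial counterpart and by site in the ribosome were made with the values known, and no test was made of either.

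Another 52 genes of the 78 did not pass. In 4 of these, Mrpl51, Mrps21, Mrps24 and Mrpl46, all DEHP libraries lay above all CMC libraries, with adjusted p from 0.0755 to 0.102. They were singled out after their values were seen. Just past the threshold were Mrps35 (adjusted p = 0.053) and Mrps5 (adjusted p = 0.0553). Only 6 genes had a negative log2 fold change, Mrpl18, Mrpl32, Mrps25, Mrpl48, Mrpl36 and Mrps14, with adjusted p from 0.344 to 0.966. Mrpl18, whose protein is known in human cells to take part in the import of 5S ribosomal RNA, averaged 60.3 ± 6.10 FPKM in DEHP and 66.3 ± 5.07 FPKM in CMC livers (SD, n = 5 each; log2 fold change -0.14, SE 0.09, adjusted p = 0.344).

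At the ends of the range of levels, the genes next in abundance to Mrpl12 were Mrpl52 and Mrps21. Mrpl52, particular to mitochondria, read 159, 151, 174, 168 and 175 FPKM in DEHP libraries 1 to 5, against 146, 185, 166, 142 and 154 FPKM in CMC libraries 1 to 5. The groups overlapped (log2 fold change 0.06, SE 0.08, adjusted p = 0.691), and the log2 fold change was -0.01 after median-of-ratios scaling and -0.09 after quantile normalization. Mrps21, with a bacterial counterpart, read 133, 134, 131, 148 and 156 FPKM in DEHP libraries 1 to 5, against 119, 129, 125, 109.6 and 119 FPKM in CMC libraries 1 to 5. The groups were apart by a small margin (log2 fold change 0.22, SE 0.07, adjusted p = 0.0777). The least abundant genes were Mrpl19, Mrps25 and Mrpl35. Mrpl19, with a bacterial counterpart, read 3.90, 3.01, 3.82, 2.73 and 3.70 FPKM in DEHP libraries 1 to 5, against 3.09, 2.38, 3.70, 2.60 and 2.52 FPKM in CMC libraries 1 to 5. The groups overlapped (log2 fold change 0.23, SE 0.14, adjusted p = 0.35). Mrps25, particular to mitochondria, read 4.93, 4.63, 5.31, 3.85 and 4.35 FPKM in DEHP libraries 1 to 5, against 4.77, 5.76, 3.93, 4.52 and 5.41 FPKM in CMC libraries 1 to 5. The groups overlapped (log2 fold change -0.07, SE 0.13, adjusted p = 0.795), and the sign turned when both DEHP library 5 and CMC library 2 were left out. Mrpl35, with a bacterial counterpart, read 7.41, 7.09, 7.52, 9.26 and 6.03 FPKM in DEHP libraries 1 to 5, against 5.48, 6.47, 6.98, 6.20 and 5.81 FPKM in CMC libraries 1 to 5. These groups overlapped as well (log2 fold change 0.24, SE 0.12, adjusted p = 0.217).

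Promoters were read for the 69 of the 78 genes that RefSeq's promoter table holds (GRCm38.p6, 250 bases before to 50 after the start that the table gives). Mrps18b, Mrpl10, Mrps27 and Mrpl33 are shown because each was called and together they hold the motifs found in the set. Capitals mark matches, on either strand, to the ETS motif CCGGAAG, bound by GABP among others, the NRF1 motif GCGCATGC, and the YY1 motif AAGATGGC. A match on the opposite strand reads CTTCCGG, GCATGCGC or GCCATCTT. No matches overlap in these 4 windows. Mrps18b is at chr17:35916391-35916690, minus strand, Mrpl10 at chr11:97041332-97041631, plus strand, Mrps27 at chr13:99344536-99344835, plus strand and Mrpl33 at chr5:31613701-31614000, plus strand, each printed 5′ to 3′ in the direction of the gene.
Mrps18b: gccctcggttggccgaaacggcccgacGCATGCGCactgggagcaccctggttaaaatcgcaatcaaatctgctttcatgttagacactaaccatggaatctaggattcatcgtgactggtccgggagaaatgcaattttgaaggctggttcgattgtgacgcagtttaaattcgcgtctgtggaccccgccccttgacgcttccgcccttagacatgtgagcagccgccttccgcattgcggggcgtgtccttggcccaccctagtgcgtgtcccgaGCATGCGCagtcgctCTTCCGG
Mrpl10: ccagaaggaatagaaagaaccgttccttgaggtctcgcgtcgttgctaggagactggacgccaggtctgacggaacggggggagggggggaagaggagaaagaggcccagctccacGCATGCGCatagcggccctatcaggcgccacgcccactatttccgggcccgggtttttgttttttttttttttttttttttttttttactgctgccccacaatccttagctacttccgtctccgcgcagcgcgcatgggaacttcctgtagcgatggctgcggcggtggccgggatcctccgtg
Mrps27: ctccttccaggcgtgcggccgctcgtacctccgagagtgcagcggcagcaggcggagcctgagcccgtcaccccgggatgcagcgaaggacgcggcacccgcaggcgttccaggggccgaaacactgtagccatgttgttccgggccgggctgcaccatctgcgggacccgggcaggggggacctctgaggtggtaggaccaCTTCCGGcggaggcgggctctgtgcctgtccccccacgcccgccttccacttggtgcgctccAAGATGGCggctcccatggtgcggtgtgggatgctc
Mrpl33: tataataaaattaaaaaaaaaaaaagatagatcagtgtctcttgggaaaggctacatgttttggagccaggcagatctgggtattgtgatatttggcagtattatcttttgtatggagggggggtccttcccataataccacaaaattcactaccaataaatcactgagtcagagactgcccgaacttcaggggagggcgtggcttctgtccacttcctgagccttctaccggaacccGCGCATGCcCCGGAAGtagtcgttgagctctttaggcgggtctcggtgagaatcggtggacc

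Counted from the start in the promoter table as 1, which for Mrps27 lies inside the gene's full span, Mrps18b has NRF1 matches at -223 and 29 and an ETS match at 44. Mrpl10 has an NRF1 match at -134. Mrps27 has an ETS match at -48 and a YY1 match at 15, and Mrpl33 has an NRF1 match at -12 and an ETS match at -3. Matches were counted per gene, in any of its listed promoters, and Mrps16, Mrpl2 and Mrpl48 have more than 1. The ETS motif was present in 26 of the 69 genes (37.7%), beside 20.8% of 9014 tested genes and 9.93% of all 27025 genes with a listed promoter. The NRF1 motif was present in 8 (11.6%), beside 6.02% and 3.05%, and the YY1 motif in 12 (17.4%), beside 5.48% and 3.19%. A DR1 element was written as 2 copies of AGGTCA with 1 base between them, the form of site that PPARs bind as partners of RXR. It was found in none of the 69, beside 0.0555% of the tested genes and 0.0481% of all genes with a listed promoter. With shares that low, none among 69 cannot set these genes apart. Only exact copies within 300 bases were searched, so the count does not show that such sites are absent. Among called genes with a listed promoter the ETS motif was in 9 of 23, and among those not called in 17 of 46. NRF1 matches were in 5 of 23 and 3 of 46, and YY1 matches in 4 of 23 and 8 of 46. These are counts of letters in a window and were not tested.

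The 78 genes lie on 17 chromosomes, with the most, 11, on chromosome 11. In the GENCODE annotation of GRCm38, 33 of them (42.3%) start within 1000 bases of a coding gene on the other strand that runs the opposite way, beside 16.8% of 10825 tested coding genes. Of the 28 such neighbours tested, 4 rose (Klc4, Psma2, Mrps11 and Apba3) and 1 fell (Zfp189), beside 9.12% of all tested genes higher and 2.40% lower. These 5 are named from their calls. The median log2 fold change of the 28 was 0.20, beside 0.06 over all tested genes. Mrps11 and Mrpl46, both among the 78, are each other's neighbour, so both enter the 28 and their median. Among the 26 called genes 9 overlap another coding gene, beside 33.3% of all 78 genes and 26.3% of 10825 tested coding genes. Of the called genes, Mrps34 overlaps Mapk8ip3 and Nme3, Mrpl33 overlaps Rbks and Mrps30 overlaps B430218F22Rik. Whether the authors assigned fragments by strand is not known here, so fragments of overlapping genes may be shared, and 3 of the 78 genes have a named pseudogene.

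Other lists of mitochondrial protein synthesis also held genes that rose, and none that fell. Beside them, 9.12% of all tested genes were higher on FPKM as deposited and 5.68% after median-of-ratios scaling. Of the 5 mitochondrial ribosomal proteins known by other symbols 2 rose. Dap3, a GTP-binding protein of the small subunit, averaged 9.96 ± 0.905 FPKM in DEHP and 7.10 ± 0.951 FPKM in CMC livers (SD, n = 5 each; log2 fold change 0.47, SE 0.11, adjusted p = 0.0133), and Gadd45gip1, a large-subunit protein, averaged 61.0 ± 7.52 FPKM in DEHP and 49.4 ± 3.15 FPKM in CMC livers (SD, n = 5 each; log2 fold change 0.30, SE 0.09, adjusted p = 0.046). Among 30 ribosome assembly and ribosomal RNA modification genes 6 rose (20%) and none fell, with a median of 0.25 on the log2 scale. The 5 with the smallest p were Mpv17l2, C1qbp, Noa1, Trub2 and Rmnd1. Noa1, a GTPase needed for small-subunit assembly, averaged 7.89 ± 1.02 FPKM in DEHP and 5.16 ± 0.494 FPKM in CMC livers (SD, n = 5 each; log2 fold change 0.56, SE 0.11, adjusted p = 0.00501), and C1qbp, a matrix protein that binds RNA, averaged 92.6 ± 4.70 FPKM in DEHP and 70.8 ± 3.21 FPKM in CMC livers (SD, n = 5 each; log2 fold change 0.38, SE 0.07, adjusted p = 0.00218).

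Of 15 translation factors 5 rose (33.3%) and none fell, with a median of 0.28. Tufm, the elongation factor that brings charged transfer RNA, averaged 96.6 ± 7.42 FPKM in DEHP and 76.3 ± 2.34 FPKM in CMC livers (SD, n = 5 each; log2 fold change 0.34, SE 0.07, adjusted p = 0.00688), and Tsfm, its nucleotide exchange factor, averaged 20.4 ± 3.22 FPKM in DEHP and 12.9 ± 1.49 FPKM in CMC livers (SD, n = 5 each; log2 fold change 0.64, SE 0.12, adjusted p = 0.00277). The others were Gfm2, which acts in ribosome recycling, the release factor Mtrf1, and Oxa1l, the insertase of the inner membrane. Of 20 transfer RNA synthetases and amidotransferase subunits 3 rose (15%) and none fell, beside 9.12% of all tested genes higher. After median-of-ratios scaling 1 of the 20 was higher, beside 5.68% of all tested genes. Gatb, a subunit of the glutamyl-tRNA amidotransferase, averaged 23.5 ± 1.06 FPKM in DEHP and 12.9 ± 1.27 FPKM in CMC livers (SD, n = 5 each; log2 fold change 0.84, SE 0.09, adjusted p = 3.08e-05), and Lars2, the leucyl-tRNA synthetase, had a log2 fold change of 0.71.

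Of 27 genes of mitochondrial DNA expression and RNA processing 6 rose (22.2%) and none fell. Hsd17b10, a short-chain dehydrogenase of branched-chain amino acid and fatty acid breakdown that is also a subunit of mitochondrial RNase P, averaged 328 ± 54.2 FPKM in DEHP and 161 ± 15.9 FPKM in CMC livers (SD, n = 5 each; log2 fold change 1.01, SE 0.10, adjusted p = 3.08e-05). Elac2, which trims the 3′ ends of transfer RNAs, averaged 10.1 ± 0.420 FPKM in DEHP and 6.86 ± 0.482 FPKM in CMC livers (SD, n = 5 each; log2 fold change 0.52, SE 0.09, adjusted p = 0.00186). Across these lists, which held 5, 30, 15, 20 and 27 tested genes, 22 genes other than the 78 rose, and 14 after median-of-ratios scaling. The all-gene shares were 9.12% and 5.68%.

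Products of the mitochondrial ribosome work beside nuclear-encoded subunits of the respiratory chain. Of 36 nuclear complex I genes 8 rose (22.2%, median 0.23), and of 34 genes of complexes III to V 14 rose (41.2%, median 0.22). None was lower in either, and 9.12% of all tested genes were higher. Ndufb3, an accessory subunit of complex I, averaged 123 ± 5.48 FPKM in DEHP and 82.1 ± 4.63 FPKM in CMC livers (SD, n = 5 each; log2 fold change 0.58, SE 0.07, adjusted p = 0.000116), and Cox6b1, a subunit of cytochrome c oxidase, averaged 706 ± 63.7 FPKM in DEHP and 530.1 ± 33.2 FPKM in CMC livers (SD, n = 5 each; log2 fold change 0.41, SE 0.08, adjusted p = 0.00343). After median-of-ratios scaling 4 of the 36 and 3 of the 34 were higher, beside 5.68% of all tested genes. Of 16 mitochondrial chaperones and proteases 11 rose (median 0.34), among them the chaperonin genes Hspd1 and Hspe1 and the prohibitin gene Phb. Hspd1, which folds imported proteins, averaged 250.5 ± 25.3 FPKM in DEHP and 169.6 ± 15.2 FPKM in CMC livers (SD, n = 5 each; log2 fold change 0.56, SE 0.09, adjusted p = 0.00103). Proteins of the cytosolic ribosome, a list added after the values of the 78 were seen, rose in 2 of 81 genes (Rplp1 and Rps4l), with a median of 0.09. After median-of-ratios scaling none of the 81 was higher and 1 was lower. Whether the mitochondrial and cytosolic sets differ was not tested.

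Transcription factors and coactivators known to act on genes of mitochondrial proteins were called in few cases. Of 14 such regulators 2 rose (14.3%, beside 9.12% of all tested genes), Pparg and Esrra, none fell, and the median was -0.10. Pparg is the gene knocked out in these livers, and its value over all exons cannot check the deletion. After median-of-ratios scaling 1 of the 14 was higher, beside 5.68% of all tested genes. The factors of the motifs above and 2 further regulators are given whatever their values. Nrf1 averaged 1.69 ± 0.249 FPKM in DEHP and 2.31 ± 0.367 FPKM in CMC livers (SD, n = 5 each; log2 fold change -0.36, SE 0.14, adjusted p = 0.137). Gabpa, the DNA-binding subunit of GABP, averaged 6.40 ± 1.34 FPKM in DEHP and 5.93 ± 0.385 FPKM in CMC livers (log2 fold change 0.08, SE 0.14, adjusted p = 0.796). Yy1 averaged 16.4 ± 1.95 FPKM in DEHP and 15.0 ± 2.20 FPKM in CMC livers (log2 fold change 0.12, SE 0.11, adjusted p = 0.541), Ppargc1a 1.43 ± 0.476 FPKM in DEHP and 1.55 ± 0.497 FPKM in CMC livers (log2 fold change -0.09, SE 0.20, adjusted p = 0.836) and Tfam 8.87 ± 0.957 FPKM in DEHP and 9.67 ± 1.85 FPKM in CMC livers (log2 fold change -0.10, SE 0.13, adjusted p = 0.674), each with n = 5 per group. None of these 5 transcripts passed the test.

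**Figure D5:**
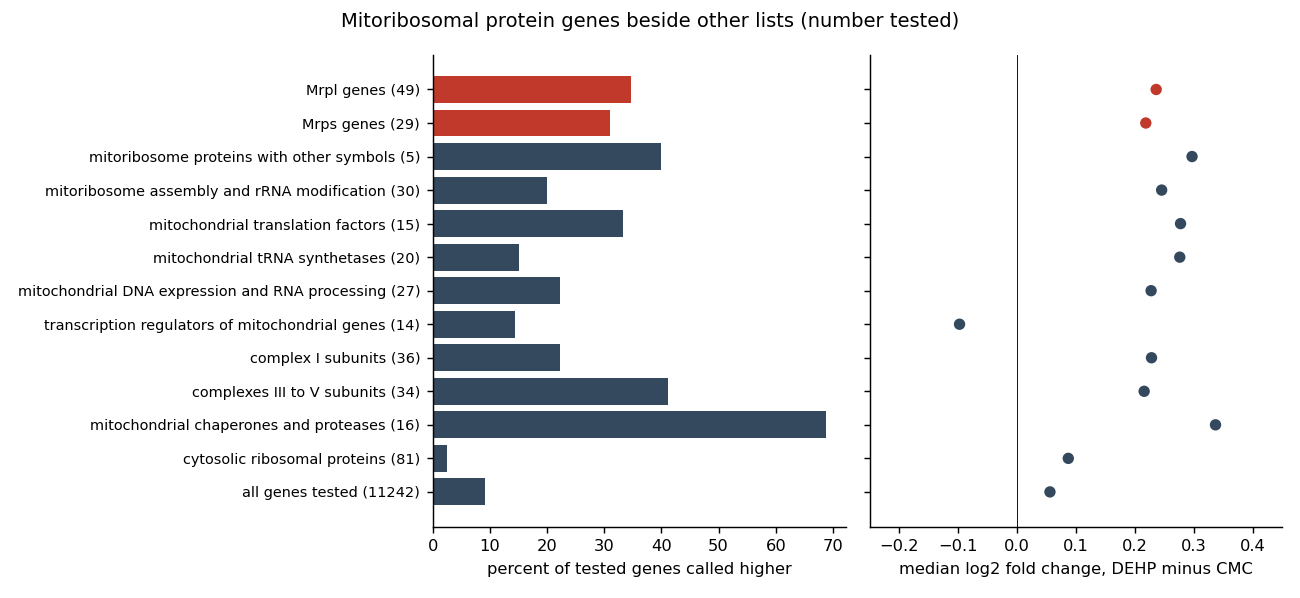
Left, percent of the tested genes of each list that were called higher in DEHP livers. Right, the median log2 fold change of each list (DEHP minus CMC, on log2(FPKM + 0.5)). All tested genes, with a median of 0.06, have a row of their own. The medians lay between 0.22 and 0.34 for the mitochondrial lists, at 0.09 for the cytosolic ribosome and at -0.10 for the regulators.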

How the data were processed

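The libraries, 5 per group, were prepared from liver total RNA (TruSeq kit, per the labels). FPKM values per gene were deposited by the authors, per the file headers, with no counts. The submitters' processing notes name Cuffdiff, mm10 and GRCm38. No aligner is named in what was read here. Reads shared by overlapping genes or near-identical copies were assigned upstream.

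Of 16874 rows, 16833 matched a RefSeq gene table of GRCm38.p6, the source of coordinates. Genes with at least 0.5 FPKM in 5 of 10 libraries were tested as log2(FPKM + 0.5), a scale that understates changes of low genes, with limma 3.58.1 in R 4.3.3 (intensity trend, robust variance), DEHP minus CMC, adjusted over 11242 genes at 0.05. The step was tested on simulated data.

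The members and gene lists were chosen with earlier results of these data known. Values in every library are given for the 10 large-subunit and 8 small-subunit genes with the smallest p, the 3 highest and 3 lowest means and the Mrps18 family, and of each list up to 5 genes by p are named. Alternatives were pseudocounts of 0.1 and 1, no filter, a filter at 2 FPKM, both scalings, limma without trend, a replicate block, a component of 17 circadian genes (mean 1.54 in DEHP, -1.54 in CMC) and leaving out libraries.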

Additional observations from a re-analysis of the deposited data

Results flagged for a closer look

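In groups of 5, the lowest or highest library was compared with the others by its gap to the nearest divided by the group's range, for the 25 named genes and 3 library summaries in each group. Of the 56 groups examined 2 stood out, and chance gives about 1 in 20.

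Mrps18c read 78.1 FPKM in DEHP library 1, while the other DEHP libraries lay between 58.2 and 62.0 FPKM (gap over range 0.809). The ratio of summed large-subunit to small-subunit FPKM was 2.11 in CMC library 2, while the other CMC libraries lay between 1.94 and 1.99 (gap over range 0.733). What sets these libraries apart was not tested.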

How the results depend on the processing

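On FPKM as deposited 26 members were higher, 17 large and 9 small by symbol. Median-of-ratios scaling gave 10 (5 and 5) and quantile normalization 8 (3 and 5), where the medians were 0.124 for the large and 0.0735 for the small subunit. The circadian component as a covariate gave 15 (10 and 5), limma without trend and robust variance 11 large-subunit genes, and the replicate block 17 members (10 large). The cause was not tested. Leaving out 1 library gave 18 (without DEHP 3) to 23 members and 11 to 16 large-subunit genes, from fewer libraries, and 15 of the 26 calls held in all 10. Genes of other mitochondrial translation lists higher were 22, and 14 after median-of-ratios scaling. Among the 25 named genes, direction turned for Mrpl52 (-0.0113 median-of-ratios, -0.0891 quantile), Mrps18c (-0.0148 quantile) and Mrps25 (0.0059 without CMC 2 and DEHP 5). Other members turned too. Positive values were found for 72 members on FPKM as deposited, 63 after median-of-ratios scaling and 55 after quantile normalization. Across named genes and alternatives, 439 values kept direction and call, 57 lost the call and 4 turned. Libraries with the same number did not deviate together (correlations -0.07 to 0.05, none best with its own number). Depth is unknown from FPKM.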
